A study of Arabidopsis thaliana with 9 samples.

Results

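The Arabidopsis thaliana F-box loci AT1G32140, AT4G12820, AT3G19880 and AT1G67450 were chosen by their normalized small RNA reads, which were lower in rls6 plants than in plants of either other genotype. They were 4 of 37336 listed genes and 4 of 941 listed loci whose annotation names an F-box. The rls6 values below are therefore a description and were not tested. The comparison of prors1 (LUC) with Col-0 (LUC), which did not enter the choice, was tested. Small RNA selected at 17 to 30 nt was sequenced from 3 libraries of each of the genotypes rls6, prors1 (LUC) and Col-0 (LUC). All genotypes grew in soil for 25 days under a cycle of 16 h of light and 8 h of dark, although another label gave 26 days. The genotype label names prors1 (LUC) and rls6, whereas the source label calls them rbp-ko-1 and rbp-ko-2. The labels explain neither LUC nor the change carried by rls6, and they do not say whether replicate libraries came from separate plants. The p-values therefore measure only the spread between these libraries.

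F-box proteins are the substrate-binding subunits of SCF ubiquitin ligases, in which a SKP1-like protein and a cullin tie them to the ubiquitin-transferring machinery. Plants encode a large and fast-changing family of them, and most members have no assigned substrate. Some plant F-box transcripts are cut by a microRNA and then copied into double-stranded RNA that is diced into secondary small RNAs, and miR859 is one of the microRNAs known for F-box targets in Arabidopsis.

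AT1G32140 lies on the minus strand of chromosome 1 at 11562742 to 11564833 in the TAIR10.1 annotation, with 2 exons of 1776 bases in all, and is named only as an F-box family protein. AT4G12820 lies on the minus strand of chromosome 4 at 7527048 to 7529356, with 3 exons of 1552 bases. Its product name is a putative F-box/kelch-repeat protein, but the domain listed for it is DUF295 and no F-box domain is listed. AT3G19880 has a single exon of 1170 bases on the minus strand of chromosome 3, from 6911435 to 6912604. AT1G67450 has a single exon of 1197 bases on the plus strand of chromosome 1, from 25266163 to 25267359. The substrates of these proteins are not annotated.

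The genes AT1G32140, AT3G19880 and AT1G67450 share a stretch nearly complementary to miR859. The choice of genes used their F-box annotation and their reads, not the sequence itself. Such matches were concentrated among F-box loci, so they are not independent of that choice. The microRNA, from the annotated gene MIR859 on the plus strand at chr1:22149735-22149755, is given 5′ to 3′ with its seed, bases 2 to 8, in capitals. The gene sites are given 5′ to 3′ on the strand of the gene, with bases that form Watson-Crick pairs with miR859 in capitals. All are reference sequence of the TAIR10.1 build.
miR859: tCTCTCTGttgtgaagtcaaa
AT1G32140, exon 1, chr1:11564156-11564176, minus strand: TTTGAtTTtACAACAaAGAaA
AT1G32140, exon 2, chr1:11563282-11563302, minus strand: TTTGAtTTtACAACcGAGAGA
AT3G19880, exon 1, chr3:6911927-6911947, minus strand: TTTGAtTTtACggCAGAGAGA
AT1G67450, exon 1, chr1:25266814-25266834, plus strand: TTTGAtTTtACAAgAGAGAGA

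Each site was scored with 1 for a mismatch and 0.5 for a G:U pair, without gaps, on the gene's own strand only. The site in exon 2 of AT1G32140 scored 2 with 18 paired bases, 2 G:U pairs and 1 mismatch, and the one in its exon 1 scored 3. The AT3G19880 site scored 2 with 17 paired bases and 4 G:U pairs, and the AT1G67450 site scored 2 with 18 paired bases, 2 G:U pairs and 1 mismatch. The score did not weigh where in a site a mismatch fell. All mismatches of the AT1G32140 and AT1G67450 sites lay opposite the seed of miR859, and only the AT3G19880 site paired with the whole seed. Counted from the 5′ end of the joined exons, sites began at position 658 in both AT1G32140 and AT3G19880 and at 652 in AT1G67450, with the other AT1G32140 site at 1216. The best alignment in AT4G12820 scored 6.5. Among 350 distinct annotated mature microRNAs, miR859 alone matched any of the 4 genes at a score of 2 or less. At a score of 3 or less, miR774b-3p and miR4243 also matched AT1G67450, and miR414 matched AT3G19880. Across the annotation, 45 of 37051 genes (0.121%) held a miR859 match at 2 or less. All 45 were in the F-box list, of which they made up 4.78%. At a score of 3 or less, 94 genes (0.254%) held a match, and 86 of them were in the F-box list. Among the 101 other F-box loci with enough reads to be tested, 14 held a match at 2 or less and 35 at 3 or less. The score limits were chosen after the matches were seen, and a match is a description of letters, not evidence of cutting. MIR859 was not among the listed genes and overlapped none of them, so the level of miR859 was not analysed here.

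**Figure D1:**
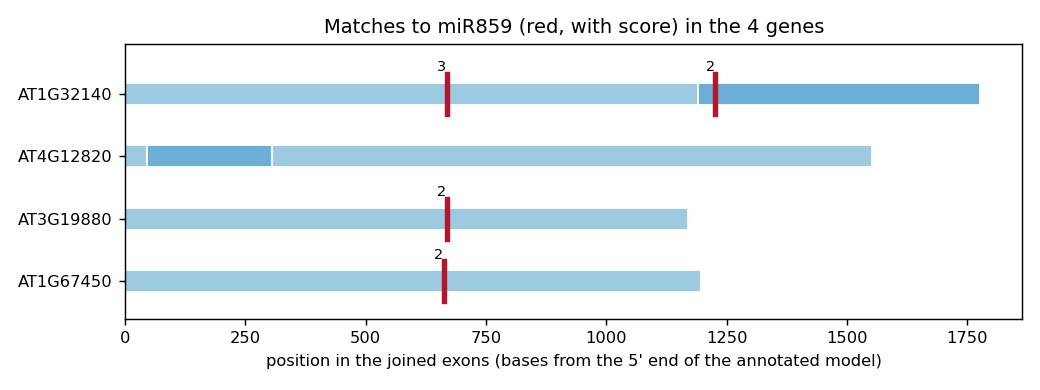
Exons of the 4 genes joined 5′ to 3′ (bars, with alternating shades for successive exons, in bases) and the miR859 matches scoring 3 or less (red ticks, with scores). Matches begin at position 658 in AT1G32140 and AT3G19880 and at 652 in AT1G67450, and AT4G12820 has none. The better match of AT1G32140 begins at 1216.

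The map of matches places one site of each matching gene at nearly the same distance from its start. In AT1G32140 that site was the weaker match, with a score of 3, and the site scoring 2 lay farther along. The matching genes were also related over their length: AT1G32140 was 74.9% identical to AT3G19880 and 72.4% to AT1G67450 over aligned exon bases, and AT3G19880 was 70.5% identical to AT1G67450. AT4G12820 was less similar, at 60.4% to 63.2% identity with each of them.

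The libraries held 611238 to 702303 reads assigned to listed genes, and values are given as the authors' normalized reads, which are read counts divided by a size factor per library (0.950 to 1.24). A count of 0 in a library allows up to 3 reads, or 2.75 to 2.97 normalized reads in the rls6 libraries, and this limit and the intervals given with read ratios cover counting error only. PRORS1, which encodes an organellar prolyl-tRNA synthetase, had 21 reads in rls6, 16 in prors1 (LUC) plants and 1 in Col-0 (LUC), and RBP45D had 0, 1 and 0 in that order. Neither was tested, and small RNA reads at a gene do not measure its messenger RNA. The table has no read length, strand or position within a gene, so size classes were not analysed here. More small RNA from a locus and a larger share of cells that make it cannot be told apart in these whole-plant libraries.

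AT1G32140 was nearly without small RNA reads in rls6. It had 1.83, 0.942 and 0 normalized reads in the rls6 libraries, against 215, 215 and 231 in prors1 (LUC) plants and 349, 302 and 359 in Col-0 (LUC). The genotypes did not overlap at any point, and the rls6 values came from 3 reads, against 652 in prors1 (LUC) plants and 1143 in Col-0 (LUC). The mean was 238-fold lower in rls6 than in prors1 (LUC) (95% counting interval 79.0 to 1127) and 364-fold lower than in Col-0 (LUC) (120 to 1712). Without rls6 replicate 1, which held 2 of the 3 reads, these ratios were 467-fold and 714-fold. Among 941 F-box loci, the gene ranked 241st by mean normalized reads in rls6, 6th in prors1 (LUC) and 3rd in Col-0 (LUC).

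AT4G12820 was also close to 0 in rls6, but it differed from the first gene in being low in prors1 (LUC) as well. It had 1.83, 0 and 0.991 normalized reads in rls6, 7.37, 6.75 and 7.18 in prors1 (LUC) plants, and 49.3, 43.4 and 40.0 in Col-0 (LUC). The 3 genotypes stood apart in that order with no overlap, from 3, 21 and 152 reads. The rls6 mean was 7.54-fold lower than in prors1 (LUC) (95% counting interval 2.23 to 39.1) and 47.0-fold lower than in Col-0 (LUC) (15.7 to 230). Without rls6 replicate 1 these ratios were 14.3-fold and 89.3-fold. The gene reached the minimum of 10 normalized reads in 3 libraries only through Col-0 (LUC).

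AT3G19880 was sparse in every genotype. It had 0, 4.71 and 0 normalized reads in rls6, 9.47, 11.6 and 10.3 in prors1 (LUC) plants, and 4.18, 8.03 and 10.2 in Col-0 (LUC). All 5 rls6 reads came from replicate 2, which lay above Col-0 (LUC) replicate 1, so rls6 and Col-0 (LUC) overlapped and the lower level in rls6 did not hold library by library. The rls6 mean was 6.64-fold lower than in prors1 (LUC) (95% counting interval 2.55 to 21.8) and 4.77-fold lower than in Col-0 (LUC) (1.74 to 15.5). Without rls6 replicate 2 no read remained, and with 3 reads set over the group the ratios became at least 7.30-fold and at least 5.24-fold lower. Without either of the other rls6 replicates they were 4.43-fold and 3.18-fold lower.

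AT1G67450 still gave many small RNA reads in rls6. It had 162, 162 and 175 normalized reads in rls6, 509, 351 and 518 in prors1 (LUC) plants, and 355, 257 and 376 in Col-0 (LUC). The 3 rls6 libraries lay close together and below the other 6, which overlapped each other. The mean was 2.76-fold lower in rls6 than in prors1 (LUC) (95% counting interval 2.48 to 3.04) and 1.98-fold lower than in Col-0 (LUC) (1.76 to 2.17). Here the reads numbered 526, 1353 and 1112, so the interval was narrow. The gene ranked 9th of the F-box loci in rls6, 3rd in prors1 (LUC) and 4th in Col-0 (LUC).

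**Figure D2:**
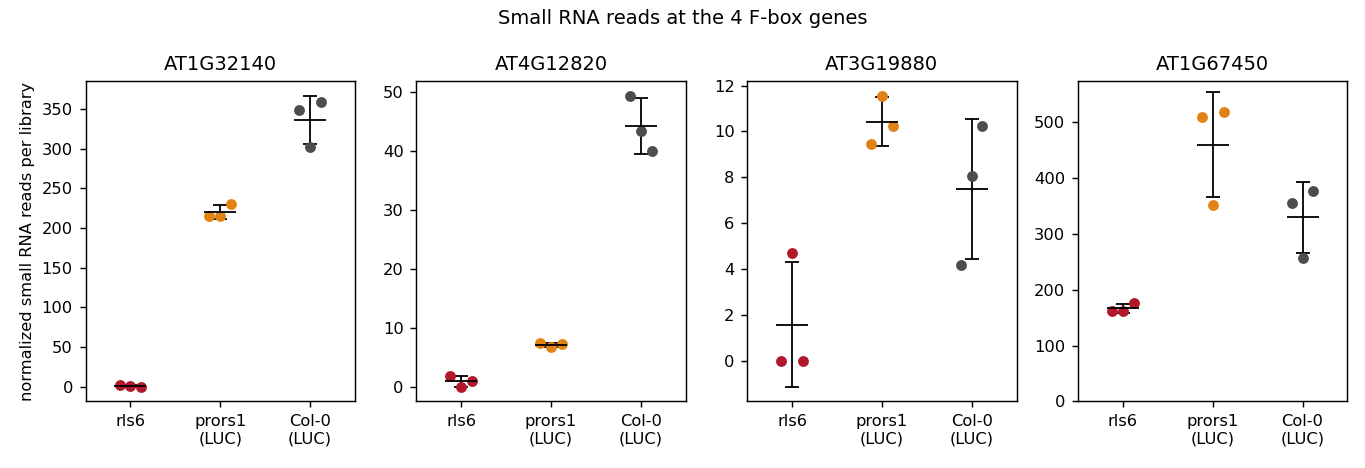
Normalized small RNA reads of each gene in the 3 libraries of rls6, prors1 (LUC) and Col-0 (LUC), each panel with its own linear axis. Dots are libraries, and bars are the mean and SD of 3 libraries. AT1G32140 lies between 0 and 1.83 in rls6, whereas AT1G67450 keeps 162 to 175.

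The plot of reads by library shows 2 genes with hardly any reads in rls6, a smaller difference at AT1G67450 and an overlap of rls6 with Col-0 (LUC) at AT3G19880. In 3 of the 4 genes all rls6 libraries lay below the other 6, a pattern of 5.6% of the 4766 tested genes, and the choice of the genes used those values. Per kilobase of exon, AT1G67450 gave 139 normalized reads in rls6, 384 in prors1 (LUC) plants and 275 in Col-0 (LUC). AT1G32140 gave 0.521 in rls6, 124 in prors1 (LUC) plants and 189 in Col-0 (LUC), so in each genotype it was below AT1G67450 on this scale. AT4G12820 gave 0.606, 4.57 and 28.5 per kilobase in rls6, prors1 (LUC) and Col-0 (LUC), and AT3G19880 gave 1.34, 8.91 and 6.40. In rls6 the values of AT1G32140, AT4G12820 and AT3G19880 rest on 3, 3 and 5 reads, and the order of these genes there cannot be read.

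Whether the genes also differed between prors1 (LUC) and Col-0 (LUC) was tested with limma over all 4766 tested genes. AT1G67450 rose in prors1 (LUC) at an adjusted p under 0.05, where 14.4% of all tested genes were called. AT4G12820 was lower at that threshold, but only its Col-0 (LUC) libraries had brought it past the filter on low values. Its result is therefore given with and without that filter. AT1G32140 and AT3G19880 were not called.

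AT4G12820 averaged 7.10 ± 0.318 normalized reads in prors1 (LUC) plants and 44.2 ± 4.74 in Col-0 (LUC) (SD, n = 3 each). Its log2 fold change was -2.48 ± 0.38 (SE), with an adjusted p of 7.12e-05 from limma. All 3 prors1 (LUC) libraries lay below all 3 Col-0 (LUC) libraries. At 27.5% of tested genes these genotypes did not overlap, in either direction. In the authors' deposited table its log2 fold change was -2.32 ± 0.34, with an adjusted p of 7.17e-10. With no filter on low values, the adjusted p from limma was 2.99e-09 at the same log2 fold change. That fit took in every gene with any read, which changes the variance trend, so its smaller p-value was not read as stronger support. Adjusted p lay between 2.99e-09 and 0.0016 over all alternatives run, and most of these kept the filter.

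AT1G67450 averaged 459 ± 94.1 normalized reads in prors1 (LUC) plants and 329.5 ± 63.6 in Col-0 (LUC) (SD, n = 3 each). Its log2 fold change was 0.48 ± 0.14 (SE), with an adjusted p of 0.0249 from limma. The groups overlapped, since prors1 (LUC) replicate 2 at 351 lay below 2 of the Col-0 (LUC) libraries, at 355 and 376. The gene no longer passed limma when any of 3 libraries was left out, with adjusted p of 0.116 without prors1 (LUC) replicate 1, 0.142 without its replicate 3 and 0.129 without replicate 2 of Col-0 (LUC). It also did not pass when scaled by library totals, with DESeq2 or in a fit of the 2 genotypes alone. Its adjusted p in the authors' deposited table was 0.0469, with a log2 fold change of 0.46 ± 0.15.

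AT1G32140 averaged 220.1 ± 9.23 normalized reads in prors1 (LUC) plants and 336 ± 30.2 in Col-0 (LUC) (SD, n = 3 each). Its libraries did not overlap between these genotypes, as was the case at 27.5% of tested genes. The log2 fold change was -0.61 ± 0.24 (SE), with an adjusted p of 0.101 from limma on all 9 libraries, which does not pass. That fit shares 1 estimate of the spread, and on the log2 scale the SD was 0.76 in rls6, 0.06 in prors1 (LUC) plants and 0.13 in Col-0 (LUC). The limma fit of the 2 genotypes alone gave an adjusted p of 0.000881 at the same log2 fold change. On recovered reads of all 9 libraries, adjusted p was 0.000156 with edgeR and 0.000643 with DESeq2. In the authors' deposited table the log2 fold change was -0.60 ± 0.12, with an adjusted p of 4.21e-05. Leaving out rls6 replicate 1 or replicate 3 also gave a call, with adjusted p of 0.0352 and 0.00827 in limma.

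AT3G19880 averaged 10.4 ± 1.06 normalized reads in prors1 (LUC) plants and 7.49 ± 3.07 in Col-0 (LUC) (SD, n = 3 each). The log2 fold change of 0.50 ± 0.56 (SE) had an adjusted p of 0.650 in limma, and the groups overlapped. These values rest on 31 reads in prors1 (LUC) plants and 25 in Col-0 (LUC), and no difference was detected.

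**Figure D3:**
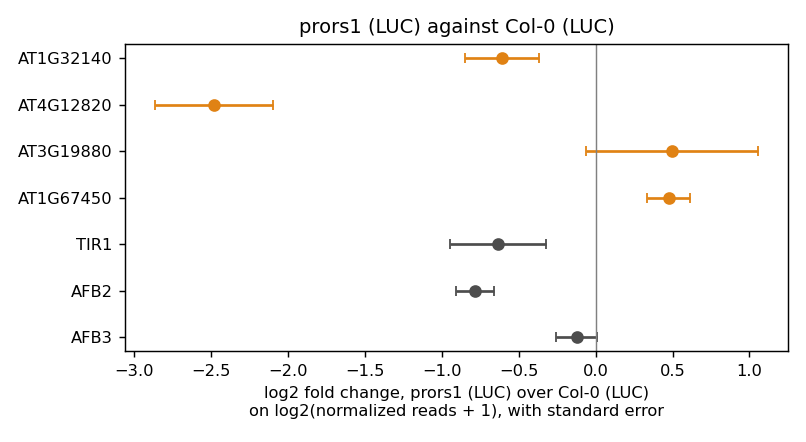
Log2 fold change of prors1 (LUC) over Col-0 (LUC) on log2(normalized reads + 1), from limma, for the 4 genes (orange) and 3 auxin receptor F-box genes (grey). Dots are estimates from 3 libraries per genotype and bars the standard error; AT4G12820 lies farthest from 0, at -2.48.

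The plot of prors1 (LUC) differences includes the F-box genes of known function as a reading aid. Of 5 hormone receptor genes, TIR1, AFB2 and AFB3, which bind auxin, had enough reads for the test, while AFB1 (11 reads in all libraries) and the jasmonate receptor COI1 (7 reads) did not. AFB2 fell in prors1 (LUC), at 76.6 ± 2.70 normalized reads against 133 ± 14.0 in Col-0 (LUC) (log2 fold change -0.79, adjusted p = 7.85e-05 in limma). It was also lower in rls6, at 101 ± 8.21 (log2 fold change -0.39 against Col-0 (LUC), adjusted p = 0.0279 in limma). TIR1 and AFB3 were not called in any of the 3 comparisons. The partners of F-box proteins gave few small RNAs: SKP1-like ASK1 had 2 reads over the 9 libraries and ASK2 had 7, the cullin CUL1 had 3, the RING subunit RBX1 had 3 and the exchange factor CAND1 had 17. None of these 5 was tested.

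Among the other F-box loci that could be tested, more rose than fell in rls6 relative to Col-0 (LUC). Of the other 937 F-box loci, 253 had no read and 101 passed the filter on low values. Against Col-0 (LUC), 22 of these 101 rose in rls6 and 7 fell in limma, where 12.7% of all tested genes rose and 4.95% fell. Their median log2 fold change was 0.11, and that of all tested genes was -0.02. Against prors1 (LUC), 18 rose and 13 fell in rls6, where 11.7% of all tested genes rose and 5.16% fell, with medians of 0.15 for the list and -0.02 for all. Between prors1 (LUC) and Col-0 (LUC), 22 rose and 10 fell, where 7.74% and 6.63% of all tested genes did, with medians of 0.03 and 0.01. With scaling by library totals, an alternative chosen for this list after the data were seen, that last split became 13 higher and 16 lower, and the median of all genes moved by -0.13.

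Summed over the 4 genes, the libraries held 170 ± 5.64 normalized reads in rls6, 697 ± 98.7 in prors1 (LUC) plants and 718 ± 93.8 in Col-0 (LUC) (SD, n = 3 each). Summed over the other F-box loci they held 7713 ± 110 in rls6, 7089 ± 174 in prors1 (LUC) plants and 6365 ± 169 in Col-0 (LUC). The sum over all listed genes, which can also differ between genotypes, was not set beside these values. They are therefore not read as a rise particular to F-box loci. The other F-box loci with the most reads did not share the low rls6 level. AT3G17400 averaged 1330 ± 63.1 in rls6, 1488 ± 132 in prors1 (LUC) plants and 1037 ± 110 in Col-0 (LUC), and AT5G47300 averaged 420.0 ± 17.0, 363 and 278 in the same order. AT1G31163 had 523, 486 and 461, AT2G32291 had 318, 289 and 233, and AT3G20690 had 311, 205 and 269, again as means in rls6, prors1 (LUC) and Col-0 (LUC).

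Beyond the 4 genes, 3 of the 937 other F-box loci had all rls6 libraries below the other 6, and 253 of the 937 had no read. Among tested loci it was 2 of 101, where 5.6% of all tested genes had this pattern. AT1G43781 averaged 6.93 normalized reads in rls6, 17.5 in prors1 (LUC) plants and 18.7 in Col-0 (LUC). AT4G04375 averaged 52.0, 70.1 and 71.8 in that order, and AT1G60410, which was too low to be tested, averaged 1.59, 3.04 and 3.13. The differences of these loci were smaller than those of AT1G32140 and AT4G12820, but not all were smaller than that of AT1G67450. Against Col-0 (LUC), the log2 fold change in rls6 was -1.32 at AT1G43781 and -0.96 at AT1G67450. Against prors1 (LUC) it was -1.21 and -1.44 in the same order.

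**Figure D4:**
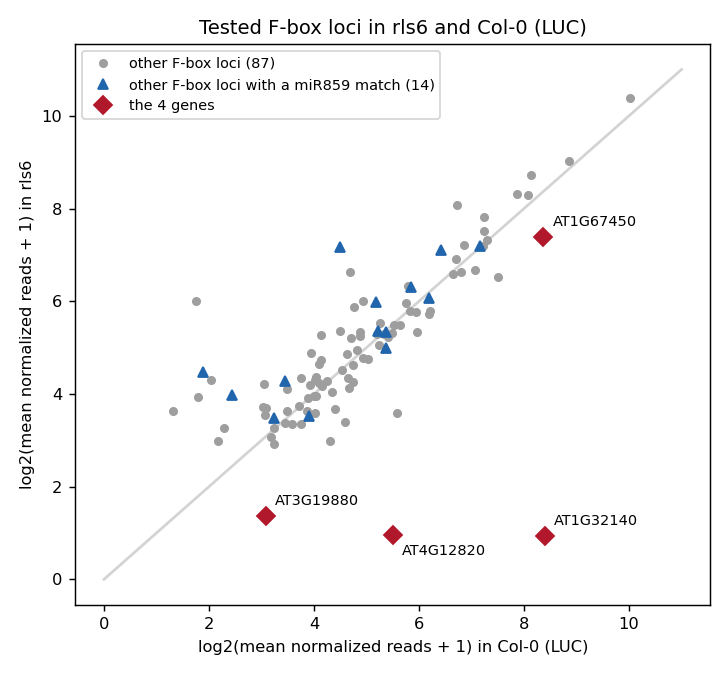
Mean level, as log2(mean normalized reads + 1), of tested F-box loci in rls6 (vertical axis) and Col-0 (LUC) (horizontal axis), with a grey line of equal levels. The 4 genes (red diamonds) lie under the line by selection, and the 14 other loci with a miR859 match (blue triangles) range from -0.43 to 2.91 in log2 fold change from limma.

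The plot of F-box loci also marks other loci with a miR859 match. Of the 14 that scored 2 or less and were tested, 5 rose and 0 fell in rls6 against Col-0 (LUC) in limma, where 12.7% of all tested genes rose and 4.95% fell. At that background, no lower locus among 14 is not a result about them. The median of their log2 fold changes was 0.38, in a range of -0.43 to 2.91. At an unadjusted p under 0.05, 7 were higher and 0 lower, edgeR called 5 higher and 0 lower, and DESeq2 4 higher and 0 lower. Beside them, 87 other tested F-box loci had no match at 2 or less. Of these 87, 17 rose and 7 fell in that comparison in limma, with a median of 0.09. The genes chosen for being low in rls6 are left out of these counts. AT3G21170, an F-box locus with such a match, averaged 144 ± 13.8 normalized reads in rls6, 16.6 ± 5.18 in prors1 (LUC) plants and 21.7 ± 2.16 in Col-0 (LUC). Its log2 fold change in rls6 against Col-0 (LUC) was 2.67, with an adjusted p of 4.36e-10 in limma, and it was chosen as an example after its values were seen. Against prors1 (LUC), 4 of the 14 rose and 1 fell in rls6 in limma, beside 11.7% and 5.16% of all tested genes. Between prors1 (LUC) and Col-0 (LUC), 2 of the 14 rose and 1 fell, beside 7.74% and 6.63%.

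Apart from AT4G12780, the genes on either side gave few small RNA reads in any genotype. Within 10 kb of AT1G32140 lay 5 other listed genes, of AT4G12820 10, of AT3G19880 7 and of AT1G67450 8, and none overlapped the F-box gene. Most had under 10 reads in all libraries. AT4G12780, a DnaJ-domain gene 9980 bases from AT4G12820, had 29.5 normalized reads in rls6, 19.1 in prors1 (LUC) plants and 15.5 in Col-0 (LUC) on average. AT1G32120, a phosphatase-like gene near AT1G32140, had 8 reads in rls6, 1 in prors1 (LUC) plants and 10 in Col-0 (LUC). AT4G12810, an F-box neighbour of AT4G12820, had 1, 3 and 6 reads, and AT3G19890, a neighbour of AT3G19880, had 5, 2 and 3. The genes closest to the 4 loci, 114 to 660 bases away, had 0 to 6 reads each.

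**Figure D5:**
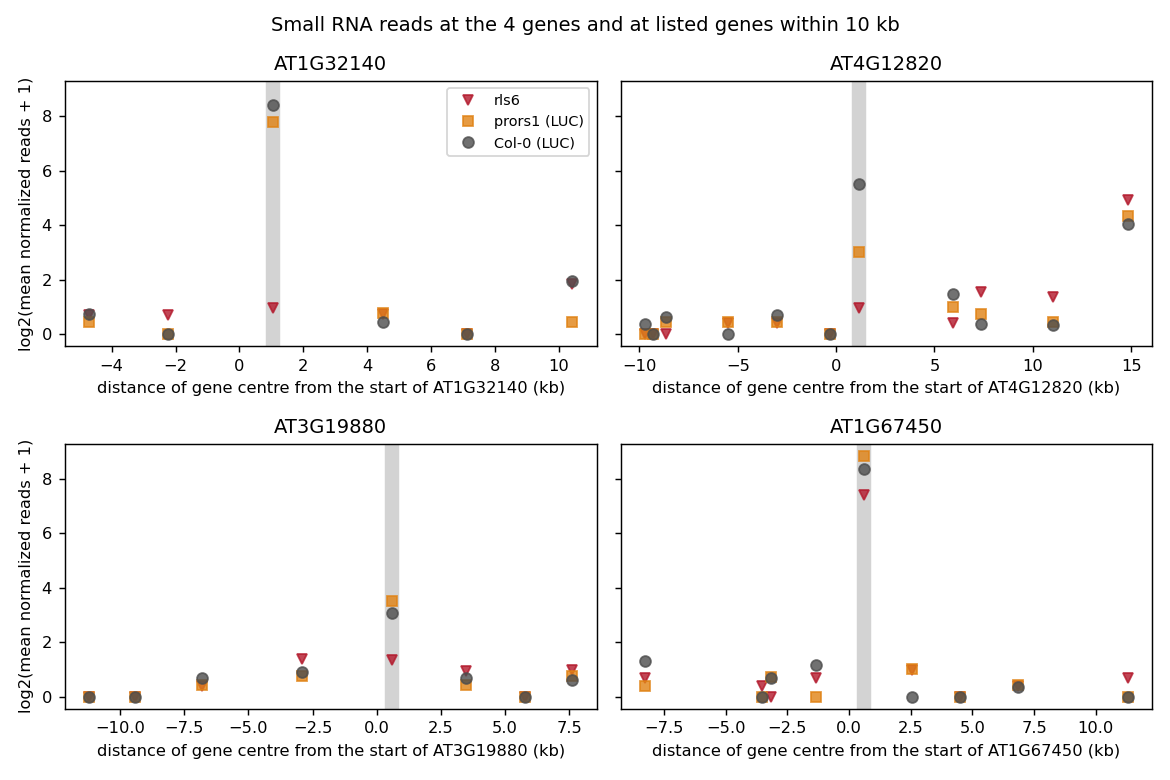
Mean level, as log2(mean normalized reads + 1), at each F-box gene (grey band) and at listed genes within 10 kb, by distance of the gene's centre from the F-box gene's start in kb. Triangles are rls6, squares prors1 (LUC) and circles Col-0 (LUC). Apart from AT4G12780, the flanking genes lie near 0 in every genotype.

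In the plot of flanking genes, each F-box gene stands above its neighbours in Col-0 (LUC). Among neighbours with at least 10 reads, AT4G12780 lay above AT4G12820 by mean normalized reads in rls6. There AT1G32120 had 8 reads against 3 at AT1G32140, and AT3G19890 and AT3G19880 had 5 each. The order within these pairs in rls6 cannot be read. AT4G12780 also lay above AT4G12820 in prors1 (LUC). Whether reads could be placed in these genes with certainty was checked in part by cutting their exons into 21-base windows. Of these windows, 96.5% in AT1G32140, 87.7% in AT4G12820, 93.0% in AT3G19880 and 95.0% in AT1G67450 occurred once in the genome. Only exact copies were counted, so reads shorter than 21 bases and copies with a mismatch are not covered. AT4G12820 shared 112 windows with its neighbour AT4G12810, which was 85.1% identical to it. AT3G19880 shared 9 of its windows with AT1G32140 and 20 with its neighbour AT3G19890, and AT1G67450 shared 14 with AT3G49510. How the authors counted reads with several places is not given in the sources used here, so reads in the shared windows could belong to either copy.

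Genes whose log2 levels followed each locus most closely over the 9 libraries were found by Pearson correlation, which is given as a description because the libraries fall into 3 genotypes that the choice of genes used. Closest to AT1G32140 were AT3G57480 (r = 0.977), with 218 normalized reads in rls6, 487 in prors1 (LUC) plants and 660 in Col-0 (LUC), and ABH1 (r = 0.967), a subunit of the nuclear cap-binding complex. ABH1 averaged 7.34 in rls6, 87.9 in prors1 (LUC) plants and 164 in Col-0 (LUC). AT1G43781, AT2G10240 and the histone H2A gene HTA4 followed, with r from 0.964 to 0.967. For AT4G12820 the 5 closest were AT4G06526 (r = 0.983), AT3G08935, AT4G10160, AT2G11480 and AT1G68570, down to an r of 0.958. AT4G10160, a RING/U-box protein gene, averaged 10.1 in rls6, 34.7 in prors1 (LUC) plants and 148 in Col-0 (LUC). For AT3G19880 they were AT1G41890 (r = 0.953), AT3G30780, AT5G45570, AT1G42650 and AT5G32481, down to 0.926. For AT1G67450 they were AT1G36975 (r = 0.979), AT2G09830, AT1G58561, AT3G05735 and AT5G30218, down to 0.946. None of the 4 genes was among the closest of another.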

How the data were processed

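The submitters' processing notes list Trimmomatic, FastQC, Bowtie2, featureCounts and the TAIR10 build. They do not say how reads with several places, or reads of either strand, were counted. The signal values deposited by the authors are normalized reads, that is, counts divided by a size factor for each library. Within 1e-06, 100% of values were whole multiples of the step of their column, and dividing by that step gave the whole reads. In the authors' deposited table stand also, for 1 comparison, log2 fold changes, their standard errors and a Wald statistic (treated as score values), and adjusted p-values, per the file headers. No groups are named there. Across 4766 genes, which are not independent replicates, those log2 values had r = 0.991 with the prors1 (LUC) differences from Col-0 (LUC) computed here.

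Of 37336 listed genes, 37051 were found in the TAIR10.1 annotation. Differences were tested with limma 3.58.1 in R 4.3.3, two-sided, using a variance trend, on log2(normalized reads + 1). Tested were 4766 genes that reached 10 normalized reads in 3 or more libraries. All 9 libraries entered with genotype as the single term, and p-values were adjusted by Benjamini-Hochberg. Fold changes on that scale understate changes of low genes. Alternatives used edgeR 4.0.16 (quasi-likelihood) and DESeq2 1.42.0 on recovered reads, limma-voom, other scalings, pseudocounts and filters, and each library left out. The limma procedure was tested on simulated data, with a fixed spread and 50 genes changed in prors1 (LUC) at each fold. It recovered 43 of 50 at a fold of 0.25, 26 at 0.5, 35 at 2 and 50 at 4. It also made 9 false calls, so many 2-fold changes were missed. Ratios of mean normalized reads carry exact 95% conditional intervals of the read counts. Chi-square per degree of freedom between replicates was 1.49 to 7.13, above sampling noise.

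Named were the 4 genes, hormone receptors and SCF subunits, F-box loci with all rls6 libraries below the rest, the 5 other F-box genes with the most reads, neighbours within 10 kb with at least 10 reads, and for each gene the 5 most correlated genes. The genes and lists were chosen with earlier results of these data known. Most pairs of same-numbered libraries had correlations of deviations under 0.1, and no label says what a number shares, so the main test did not pair libraries.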

Additional observations from a re-analysis of the deposited data

How the results depend on the processing

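Between prors1 (LUC) and Col-0 (LUC), AT1G32140 (log2 fold change -0.61, adjusted p = 0.101 in limma) became a call with a pseudocount of 5 (-0.60, adjusted p = 0.00364), scaling by library totals (-0.75, 0.0288), limma-voom (-0.60, 0.000163), edgeR (-0.61, 0.000156), DESeq2 (-0.62, 0.000643) and the 2 genotypes alone (-0.61, 0.000881). AT1G67450 (0.48, adjusted p = 0.0249) lost its call with scaling by library totals (0.34, 0.110), without the variance trend (0.48, 0.182), with DESeq2 (0.47, 0.0667) and with the 2 genotypes alone (0.48, 0.0608). The cause was not tested. With each library left out in turn, the log2 fold change ran from -0.68 to -0.56 for AT1G32140 (adjusted p 0.00827 to 0.250), from -2.55 to -2.40 for AT4G12820, from 0.18 to 0.74 for AT3G19880 and from 0.31 to 0.66 for AT1G67450 (adjusted p 0.00125 to 0.142).

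DESeq2 called 363 genes between prors1 (LUC) and Col-0 (LUC), against 685 with limma, 20 other F-box genes in that comparison, against 32, and 496 genes between rls6 and prors1 (LUC), against 802. With each library left out, limma called 484 to 725 genes between prors1 (LUC) and Col-0 (LUC), 644 to 907 between rls6 and Col-0 (LUC) and 602 to 851 between rls6 and prors1 (LUC), and 23 to 32, 22 to 33 and 23 to 31 other F-box genes in the same order. Same-numbered libraries of different genotypes had correlations of deviations from -0.018 to 0.153, most of them positive and most under 0.1, and no label says what a number shares. Whether the numbers mark a shared source was not tested. With a replicate block, limma called 825 genes between prors1 (LUC) and Col-0 (LUC), 967 between rls6 and Col-0 (LUC) and 909 between rls6 and prors1 (LUC). Under it, adjusted p was 0.0503 for AT1G32140 and 0.00123 for AT1G67450, and 38 other F-box genes were called between prors1 (LUC) and Col-0 (LUC).

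The ratio of rls6 over Col-0 (LUC) with a library left out ran from 0.0014 to 0.00412 for AT1G32140, 0.0112 to 0.0319 for AT4G12820, 0.172 to 0.315 for AT3G19880 and 0.455 to 0.544 for AT1G67450. Over prors1 (LUC) it ran from 0.00214 to 0.0063, 0.0698 to 0.199, 0.137 to 0.226 and 0.324 to 0.387 in the same order. Depth limits the rls6 values of AT1G32140, AT4G12820 and AT3G19880, which rest on 3, 3 and 5 reads.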
